A study of Mus musculus with 4 samples.

Results

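The Hedgehog pathway was examined in fetal mouse lung through 8 genes, *Shh*, *Ptch1*, *Smo*, *Gli1*, *Gli2*, *Gli3*, *Hhip* and *Sufu*. Every probe set that the arrays' annotation assigned to 1 of these symbols was taken, whatever its signal. This gave 21 of 45137 probe sets other than controls, 13 on the MOE430A array and 8 on MOE430B, and 8 of the 18193 genes that the arrays name. The lungs came from embryos at E18.5, shortly before birth, of a pair of genotypes. One was Myf5-/-:MyoD-/-, a double knockout of a pair of myogenic transcription factors, which leaves the fetus without skeletal muscle, labelled as BALB/c null for both genes. The other was wild type BALB/c. Each genotype had 1 array on each of 2 Affymetrix designs, 4 arrays in all, so no test between genotypes could be made and no p-value is given. The labels do not say whether the RNA of an array came from 1 embryo or from several, or whether both arrays of a genotype shared an RNA sample. The title of the series states its question as the role of skeletal muscle in lung development.

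Sonic hedgehog (Shh) is a secreted protein that the airway epithelium of the developing lung makes and that acts mainly on the mesenchyme around it. It binds the receptor Ptch1 and so lifts the block that Ptch1 puts on Smo, a membrane protein that signals through the primary cilium to the Gli transcription factors. Gli2 acts mainly as an activator and Gli3 largely as a repressor, Sufu holds Gli proteins in check in the cytoplasm, and *Gli1*, *Ptch1* and *Hhip* are themselves transcribed in response to the signal. Ptch1 and Hhip bind the ligand and so limit its spread. Mice without *Shh* form lungs with very little branching.

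The data show no shared direction for the pathway. Its ligand, *Shh*, was 1.35-fold lower in the double knockout by its bright probe set. *Hhip*, the ligand-binding inhibitor, was 1.20-fold to 1.37-fold higher by its 3 brightest probe sets, and its dimmer probe set was near 0 on the log2 scale. For *Ptch1*, *Smo*, *Gli3* and *Sufu* the probe sets of the same gene lay on both sides of 0, so that the direction depended on which probe set was read. No probe set of *Gli1* or *Gli2* was bright enough to be compared. Of the 15 probe sets that could be compared, 9 were higher and 6 lower in the arrays labelled double knockout, with a median log2 ratio of 0.092, against -0.00097 over all 25095 compared probe sets. Of the 9 higher ones, 3 reached the level needed for comparison through the double knockout array alone, so the tally is a description.

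Signals are linear MAS5 intensities, and those of the arrays labelled double knockout are given after division by a factor that sets the median ratio of each design to 1. A probe set was compared when at least 1 of its signals lay at or above the filter, the design's median signal of 787.4 on MOE430A and 855.1 on MOE430B. Signals under the 25th percentile, 283.8 and 278.1, were set to that floor. All ratios are double knockout over wild type, on the log2 scale unless called a fold. Ratios were formed only within a design, and signals of different probe sets are not compared as levels of RNA. The choice of the brightest probe set of a gene, however, set signals of both designs side by side. Probe sets present on both designs read 3.96-fold higher on MOE430B, as a median, so this choice leaned to that design.

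In place of a replicate error, several measures of spread were available. For the 100 probe sets present on each design, the pairs of log2 ratios gave 0.245 as the SD of 1 ratio, with MOE430B on average 0.22 below MOE430A. Different probe sets of 1 gene had a pooled SD of 0.37 on MOE430A and 0.71 on MOE430B. Among probe sets whose mean signal lay at or above the 75th percentile of the design, called bright below, these were 0.28 and 0.39, and among the dimmer ones 0.43 and 0.98. Dim probe sets of MOE430B therefore carried the widest spread.

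The labels were checked on the deleted genes. The *Myod1* probe set of MOE430A went against them, with 1081 in the array labelled double knockout and 85.0 in the array labelled wild type, and *Myf5* read 8.94 and 110.5, both below the floor. On MOE430B, *Myod1* had 607.2 in the array labelled double knockout and 337.2 in the array labelled wild type, under the filter and again higher in the double knockout. Of 7 skeletal muscle markers 3 were measured, and they ran both ways. *Mylpf*, a fast muscle myosin light chain, had 220.7 in the array labelled double knockout and 916.9 in the array labelled wild type, at least 3.23-fold lower. It reached the filter through the wild type array alone, so that its direction was set by the filter. *Acta1*, skeletal muscle actin, had a log2 ratio of -0.73, and *Ckm*, muscle creatine kinase, which the heart also makes, had 0.27. Whether the *Myf5* and *Myod1* probe sets lie inside the deleted parts of the genes was not used here, so they may check nothing, and genotypes are named below as labelled. A mix-up of arrays was not tested. *Xist*, read by its brightest probe set, had 2749 in the array labelled double knockout and 7600 in the array labelled wild type. The 18S ribosomal RNA controls had median folds of 3.91 on MOE430A and 3.13 on MOE430B, higher in the double knockout on each. The lung epithelial transcript *Sftpc* read 113337 in the array labelled double knockout and 78525 in the array labelled wild type, so that lung tissue was present in both. Sex and rRNA content cannot be told apart from genotype with these arrays, and their part in the Hedgehog values was not tested.

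*Shh*, the ligand, was read by a probe set on each design. On MOE430B, 1436869_at had 16062 in the array labelled double knockout and 21748 in the array labelled wild type, a log2 ratio of -0.44. On MOE430A, 1427571_at had 602.2 in the array labelled double knockout and 643.5 in the array labelled wild type, both under the filter. The direction for *Shh* thus rests on 1 probe set, the dim one being too low to compare. The bright ratio was just larger than the spread of bright MOE430B probe sets of 1 gene, 0.39, and ran in the direction of the mean offset of 0.22 that the shared probe sets had on that design.

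*Ptch1*, the Hedgehog receptor and a target of the pathway, was read by 3 probe sets, all of which could be compared. The bright one, 1428853_at on MOE430A, had 2338 in the array labelled double knockout and 3360 in the array labelled wild type, a log2 ratio of -0.52. The second on that design, 1450824_at, had 830.4 in the array labelled double knockout and 779.1 in the array labelled wild type, a ratio of 0.092. On MOE430B, 1439663_at had 1219 in the array labelled double knockout and 573.6 in the array labelled wild type, 2.13-fold higher. The 3 ratios spanned 1.61 on the log2 scale, and a span at least as wide was found in 11.2% of the 1250 genes with 3 compared probe sets. The value of 1439663_at was the only one of the Hedgehog probe sets past 2-fold, and it lay in the dim class of MOE430B, where the spread between probe sets of 1 gene was 0.98. With the floor raised to the median it was 0.51.

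*Smo*, the signal transducer that Ptch1 holds back, was read by 3 probe sets. On MOE430A, 1427048_at had 2009 in the array labelled double knockout and 1549 in the array labelled wild type, a log2 ratio of 0.38. The other, 1427049_s_at, whose suffix marks probes that may match transcripts of more than 1 gene, had 2180 in the array labelled double knockout and 2241 in the array labelled wild type, a ratio of -0.039. These ratios differed from each other by 0.41, and 48.0% of the 3123 genes with 2 compared probe sets had a span at least as wide. On MOE430B, 1442215_at had 48.3 in the array labelled double knockout and 330.8 in the array labelled wild type, under the filter in both and under the floor in the first.

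The *Gli* genes encode the zinc finger transcription factors at the end of the pathway. *Gli1*, an activator and a target whose level is often used to read pathway activity, was carried by 1 probe set, with 600.1 in the array labelled double knockout and 688.4 in the array labelled wild type. Both signals were under the filter of 787.4, so that a change in *Gli1* could not be measured on these arrays. *Gli2* was carried by 2 probe sets on MOE430A. Of these, 1459211_at had 692.7 in the array labelled double knockout and 432.8 in the array labelled wild type, and 1446086_s_at had 72.4 and 190.8 in the same order, under the floor in both. The signals of *Gli2* were thus too low for a direction to be given.

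*Gli3*, which is processed to a repressor when Hedgehog is absent, had 2 bright probe sets on MOE430B. The brighter, 1456067_at, had 5597 in the array labelled double knockout and 5263 in the array labelled wild type, a log2 ratio of 0.089. The other, 1455154_at, had 1419 in the array labelled double knockout and 2835 in the array labelled wild type, a ratio of -0.998. A span as wide as the one between them, 1.09, was found in 14.8% of genes with 2 compared probe sets. On MOE430A, 1450525_at had 391.1 in the array labelled double knockout and 380.3 in the array labelled wild type, both under the filter. Read by the brightest probe set, *Gli3* thus did not differ by more than the spread of a ratio, and read by the second it was 1.997-fold lower.

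*Hhip*, a membrane protein that binds Hedgehog ligands and a target of the pathway, was read by 4 probe sets, all of which could be compared. On MOE430B, 1455277_at had 13704 in the array labelled double knockout and 11256 in the array labelled wild type, a log2 ratio of 0.28. The second there, 1437933_at, had 11820 in the array labelled double knockout and 8658 in the array labelled wild type, a ratio of 0.45. On MOE430A, 1421426_at had 3908 in the array labelled double knockout and 3244 in the array labelled wild type, a ratio of 0.27. The dim 1438083_at had 902.2 in the array labelled double knockout and 940.9 in the array labelled wild type, a ratio of -0.060. The bright *Hhip* probe sets of both designs were thus higher in the double knockout, while the dim one was not. On MOE430B, the ratio of 0.45 was just above the spread between bright probe sets of 1 gene, 0.39, and that of 0.28 was below it. On MOE430A, the ratio of 0.27 was just below that spread, 0.28. The 4 ratios spanned 0.51, and 76.7% of the 446 genes with 4 compared probe sets had a span at least as wide.

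*Sufu*, the cytoplasmic inhibitor of Gli proteins, was read by 3 probe sets that disagreed. On MOE430A, 1420848_at had 1054 in the array labelled double knockout and 631.0 in the array labelled wild type, a log2 ratio of 0.74. The second there, 1450024_at, had 1027 in the array labelled double knockout and 899.1 in the array labelled wild type, a ratio of 0.19. On MOE430B, 1431713_at had 1464 in the array labelled double knockout and 2921 in the array labelled wild type, a ratio of -0.996. Both MOE430A probe sets were thus higher and the MOE430B one lower, a span of 1.74 that 8.80% of the 1250 genes with 3 compared probe sets reached. By its brightest probe set, picked over the signals of both designs, *Sufu* was 1.99-fold lower. By MOE430A alone, and with the designs on 1 scale, its brightest ratio was 0.19, and no direction can be given for the gene.

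**Figure D1:**
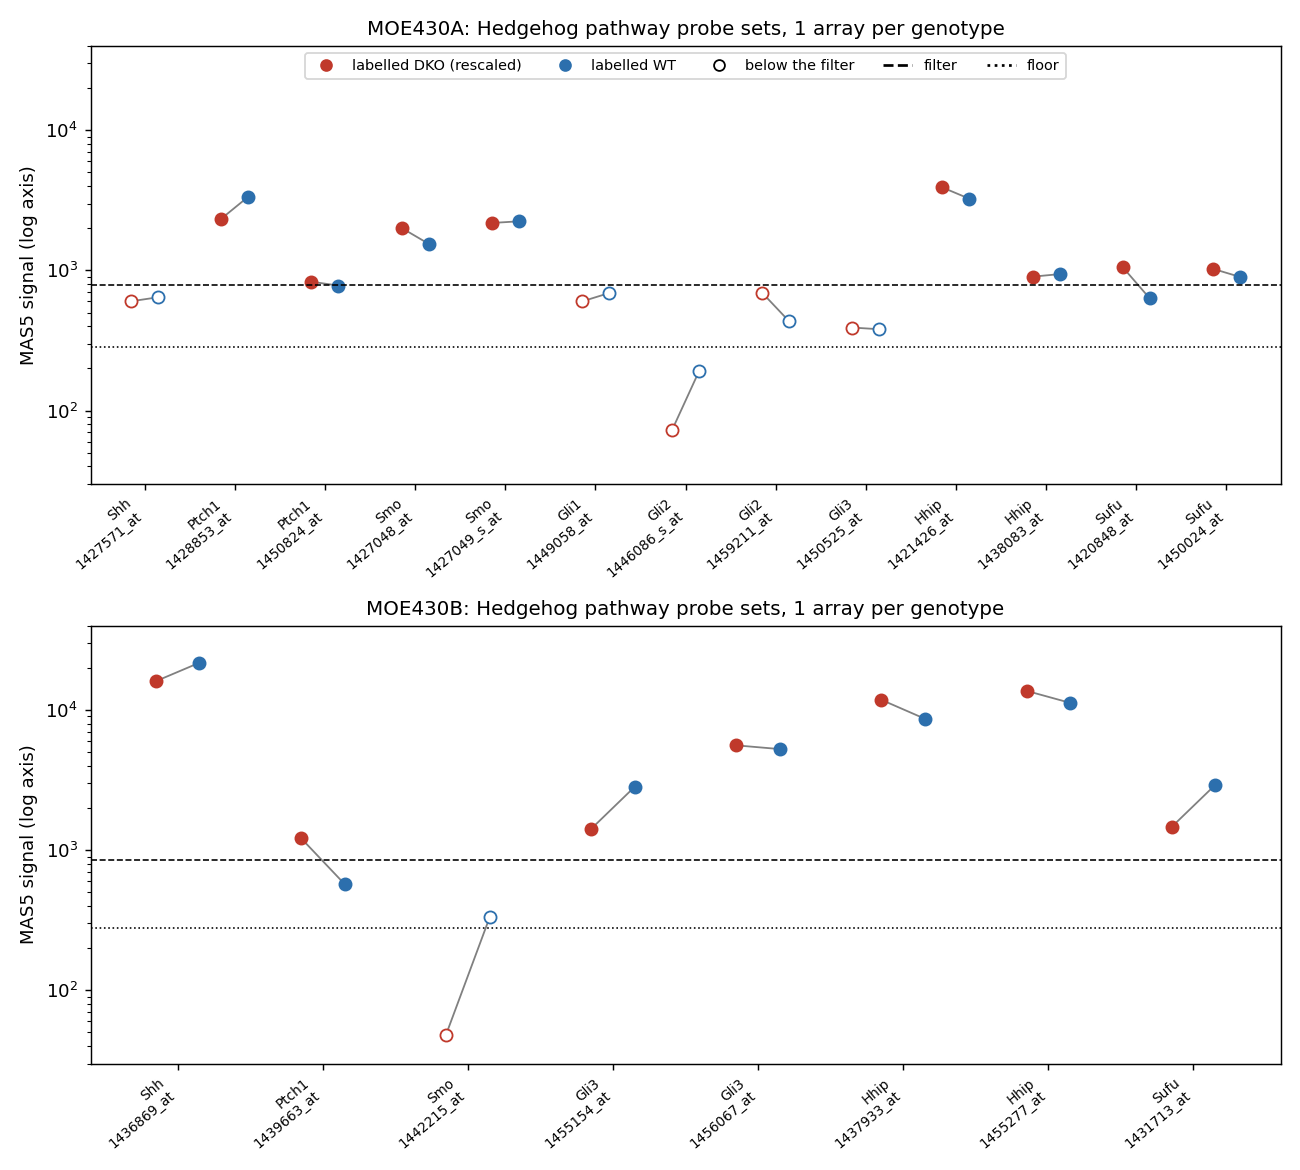
Signals of the 21 Hedgehog probe sets on MOE430A (top) and MOE430B (bottom), on a log axis in MAS5 signal units. Each pair of joined points is 1 probe set, with the array labelled double knockout (red, rescaled) left of the array labelled wild type (blue), open points are probe sets under the filter (dashed line), and the dotted line is the floor. *Shh* on MOE430B, at 16062 and 21748, is the brightest of these readings, and all *Gli1* and *Gli2* points are open.

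Disagreement of this kind was common on these arrays. All 5 members with at least 2 compared probe sets had ratios of both signs, and so had 44.5% of genes with 2 compared probe sets, 66.6% of those with 3 and 83.2% of those with 4. The pooled SD between probe sets of 1 gene was 0.64 for these 5 members and 0.56 over all 5050 genes that could be compared in this way. Of the 9 bright Hedgehog probe sets, 4 were higher and 5 lower in the double knockout. Of the 6 dimmer ones, *Ptch1* 1439663_at and 1450824_at and *Sufu* 1420848_at reached the filter through the double knockout signal alone, so their direction was set by the filter and no tally is given. Which part of the transcript each probe set reads was not used here, so different transcript forms and array noise cannot be told apart.

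**Figure D2:**
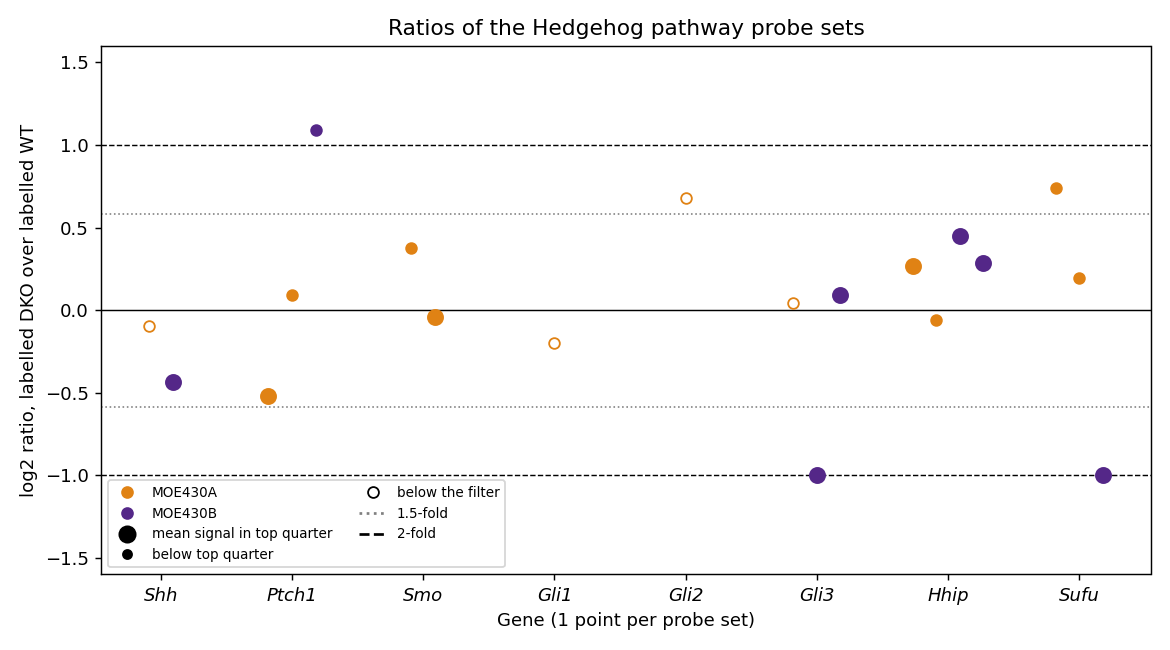
Log2 ratio of the array labelled double knockout over the array labelled wild type (y axis) for each Hedgehog probe set with both signals at or above the floor, by gene (x axis). Colours give the design, large points are bright probe sets and open points lie under the filter. *Hhip* ratios lie between -0.060 and 0.45, whereas those of *Ptch1* run between -0.52 and 1.09 and those of *Sufu* between -0.996 and 0.74.

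Counts past a fold were few and are read against the shares over all probe sets, which were 12.7% higher and 11.5% lower at 1.5-fold, and 5.86% higher and 5.10% lower at 2-fold. Of the 15, 2 (13.3%) passed 1.5-fold upward and 2 (13.3%) downward. Both upward ones, *Ptch1* 1439663_at and *Sufu* 1420848_at, reached the filter through the array where they were high alone. A stricter filter, the 75th percentile, brought the upward count to 0, so nothing is read from the shares. On MOE430A, 1 of 8 compared Hedgehog probe sets was at least 1.5-fold higher, a *Sufu* probe set, where 6.38% of all compared probe sets were, and none was at least 1.5-fold lower, where 7.31% were. On MOE430B, 1 of 7 was at least 1.5-fold higher (*Ptch1*), against 18.6% of all, and 2 were at least 1.5-fold lower (*Gli3* and *Sufu*), against 15.5% of all. At 2-fold, the *Ptch1* probe set was the only one higher, where 9.70% of compared MOE430B probe sets were, and none was lower, where 8.0% were. On MOE430A no Hedgehog probe set passed 2-fold in either direction, where 1.80% of all were higher and 2.05% lower. The *Gli3* and *Sufu* probe sets of MOE430B, at -0.998 and -0.996, were both bright, a class in which 7.31% were lower and 6.73% higher by 1.5-fold or more, and 1.19% lower and 1.46% higher by 2-fold or more. None of the 3 bright Hedgehog probe sets of MOE430A passed 1.5-fold, where 3.35% of bright probe sets were higher and 3.51% lower, with 0.463% and 0.534% in the same order at 2-fold.

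**Figure D3:**
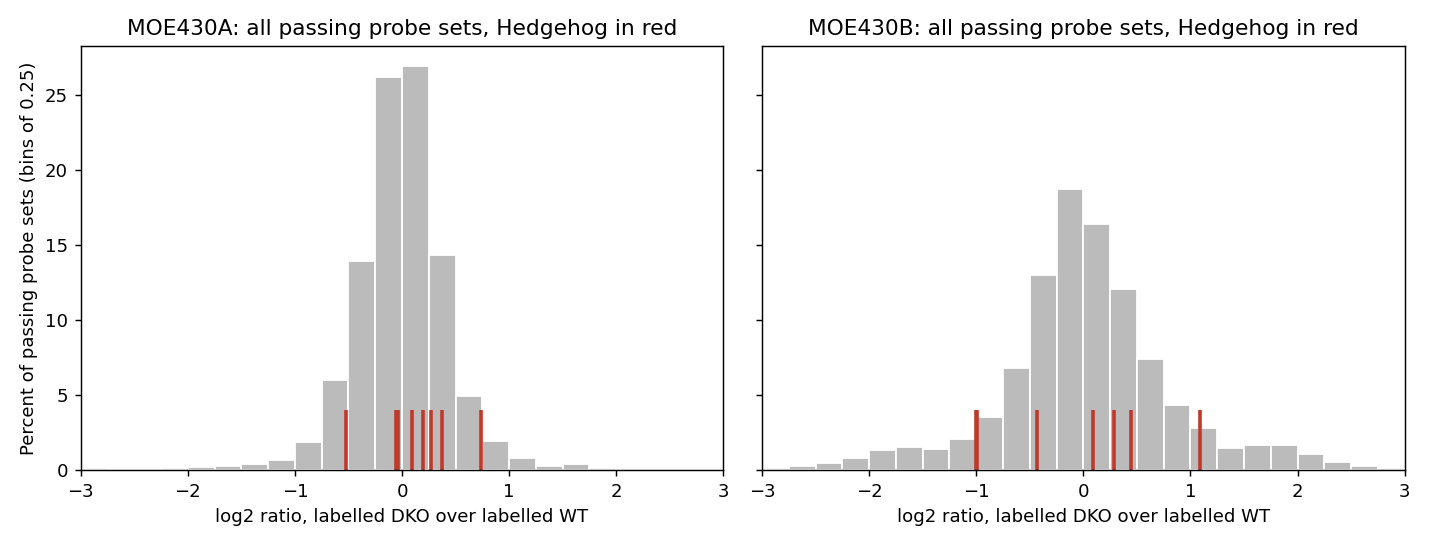
Distribution of log2 ratios (x axis) of all compared probe sets on MOE430A (left) and MOE430B (right), as percent of probe sets in bins of 0.25 (y axis), with ratios beyond the axis held in the outer bins. Red lines mark the 8 and 7 compared Hedgehog probe sets, whose height carries no value. Most lie in the central bins, and those of *Gli3* and *Sufu* fall together at -0.998 and -0.996 on MOE430B.

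With 1 probe set per gene, the brightest of those compared, 6 of the 8 genes were measured. *Hhip* (0.28) and *Gli3* (0.089) were higher and *Smo* (-0.039), *Shh* (-0.44), *Ptch1* (-0.52) and *Sufu* (-0.996) lower in the double knockout. The median over the 6 was -0.24, against -0.016 over all 12559 measured genes. This median turned to 0.13 when each gene took the median of its probe sets, and to 0.076 on MOE430A alone. With the designs on 1 scale it was 0.066, so its sign rests on the choice of probe set. Of the 6, *Sufu* was past 1.5-fold, where 9.67% of all genes were lower to that extent and 9.44% higher.

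The promoter windows of *Ptch1* and *Hhip* are shown because these are the measured members that Hedgehog signalling is known to induce. Whether their RNA followed the activity of the pathway in these lungs was not tested. They come from the RefSeq promoter table of GRCm38.p6, which held 6 of the 8 genes (all but *Shh* and *Gli1*), on the strand of the gene. Each runs 5′ to 3′ over 300 bases, with the 50 bases from the annotated start onward in capitals. *Ptch1* lies at chr13:63565686-63565985 on the minus strand and *Hhip* at chr8:80057959-80058258 on the minus strand.
Ptch1: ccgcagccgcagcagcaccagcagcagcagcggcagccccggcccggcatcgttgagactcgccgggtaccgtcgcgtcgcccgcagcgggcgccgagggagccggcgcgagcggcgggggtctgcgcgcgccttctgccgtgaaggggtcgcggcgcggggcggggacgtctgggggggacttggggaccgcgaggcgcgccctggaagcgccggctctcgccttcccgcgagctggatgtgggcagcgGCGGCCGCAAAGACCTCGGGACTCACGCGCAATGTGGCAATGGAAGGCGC
Hhip: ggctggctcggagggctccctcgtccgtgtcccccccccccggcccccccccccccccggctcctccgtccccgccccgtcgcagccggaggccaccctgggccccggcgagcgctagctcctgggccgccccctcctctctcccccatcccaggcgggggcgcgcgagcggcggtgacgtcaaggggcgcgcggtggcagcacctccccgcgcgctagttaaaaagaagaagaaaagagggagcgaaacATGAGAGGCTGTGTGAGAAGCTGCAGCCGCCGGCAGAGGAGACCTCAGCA
The GLI consensus GACCACCCA, searched with its reverse complement TGGGTGGTC, was in none of the 6 windows, nor was a form with 1 mismatch. Over all 32851 promoter windows, 0.253% held an exact match and 6.74% a match with at most 1 mismatch. The letters are thus rare in windows of this length, and their absence from them says nothing of sites elsewhere. The windows are rich in G and C, at 76.3% for *Ptch1* and 73.7% for *Hhip*.

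Other genes of the pathway were taken as lists of 60 genes, of which 49 were measured. Of these, 27 were higher and 22 lower in the double knockout, with a median log2 ratio of 0.066, against -0.016 over all genes. At least 1.5-fold differences were found for 4 higher (8.16%) and 5 lower (10.2%), close to the 9.44% and 9.67% of all genes. Past 2-fold were 1 higher and 2 lower genes, where 3.85% and 3.64% of all genes were.

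Proteins that finish and release the ligand were poorly covered, with 3 of 7 genes measured. *Hhat*, the enzyme that attaches palmitate to Hedgehog proteins, had 184.6 in the array labelled double knockout and 913.3 in the array labelled wild type, at least 3.28-fold lower. Its wild type signal was close to the filter of 855.1, which it reached through that array alone. *Disp1*, which releases the lipid-bound ligand, was level, at 2268 and 2167 in the same order. Neither *Ihh* nor *Dhh*, the other mammalian Hedgehog ligands, reached the filter.

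Of 6 receptor genes 5 were measured, 4 of them higher in the double knockout, with a median of 0.12. *Gas1*, a cell surface co-receptor, was the highest, with 3562 in the array labelled double knockout and 2059 in the array labelled wild type, a log2 ratio of 0.79, though its second probe set gave 0.032. *Boc*, a co-receptor that binds Shh, had 2223 and 1855 in that order, and both of its compared probe sets gave 0.26. *Cdon*, the relative of Boc, went the other way, with 4552 in the array labelled double knockout and 5920 in the array labelled wild type, a ratio of -0.38. *Lrp2*, an endocytic receptor, had 0.056. The receptors thus held both directions, as did *Ptch1* and *Smo*.

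Cytoplasmic and ciliary regulators were measured for 23 of 25 genes, 9 higher and 14 lower, with a median of -0.040. At least 1.5-fold lower were 3 of the 23 (13.0%), near the 9.67% of all genes. *Kif7*, the kinesin that organises Gli proteins at the tip of the cilium, had 644.9 in the array labelled double knockout and 1909 in the array labelled wild type, 2.96-fold lower, by its 1 probe set, a dim one of MOE430B that reached the filter through the wild type array alone. *Prkaca*, the catalytic subunit of protein kinase A, which phosphorylates Gli proteins for processing, had -0.59 by its MOE430B probe set and 0.17 by that of MOE430A. The suffix of the MOE430B one marks probes that may match transcripts of more than 1 gene. *Mosmo*, which dampens Smo at the membrane, had -0.43 and -0.0042 by its 2 probe sets. Among the highest were *Fkbp8*, an inhibitor of the pathway in the mouse neural tube, with 4863 and 3298 and a ratio of 0.56, and *Btrc*, the ubiquitin ligase subunit that acts on phosphorylated Gli, with 0.50 and 0.29 to 1.33 over 3 probe sets.

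Genes known to respond to Hedgehog or to signal with it between epithelium and mesenchyme were measured for 18 of 22, with 12 higher, 6 lower and a median of 0.19. *Tbx5*, a transcription factor of lung and heart mesoderm, had 2750 in the array labelled double knockout and 999.6 in the array labelled wild type, 2.75-fold higher, and 0.61 by its second probe set. *Wnt2*, a mesenchymal Wnt ligand, had 2981 and 1942 in that order, a ratio of 0.62. *Ccnd2*, a cyclin, was higher by all 5 compared probe sets, between 0.33 and 0.98. *Igf1*, a growth factor, had -0.50 by its brightest probe set, with 11486 and 16199, and -0.24 to 0.032 by the other 3. *Bcl2*, a survival factor, had -0.068 by its brightest probe set and -0.81 to 0.046 over 4. *Tbx4*, a transcription factor of lung mesoderm named here after its values were seen, had 0.40 and 0.31 by its 2 probe sets. *Mycn*, named in the same way, had -0.73 and -0.28. It was the 1 gene of the 18 (5.56%) at least 1.5-fold lower, where 9.67% of all genes were. At least 1.5-fold higher were 3 (16.7%), where 9.44% of all genes were. Among these, *Nkx2-1* reached the filter through the double knockout array alone. Of genes with several compared probe sets, *Ccnd2*, *Tbx3*, *Tbx4*, *Tbx5* and *Jag1* were higher by each, and *Mycn* lower by each. The dimmer probe sets of *Jag1* and *Mycn* reached the filter through 1 array alone.

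**Figure D4:**
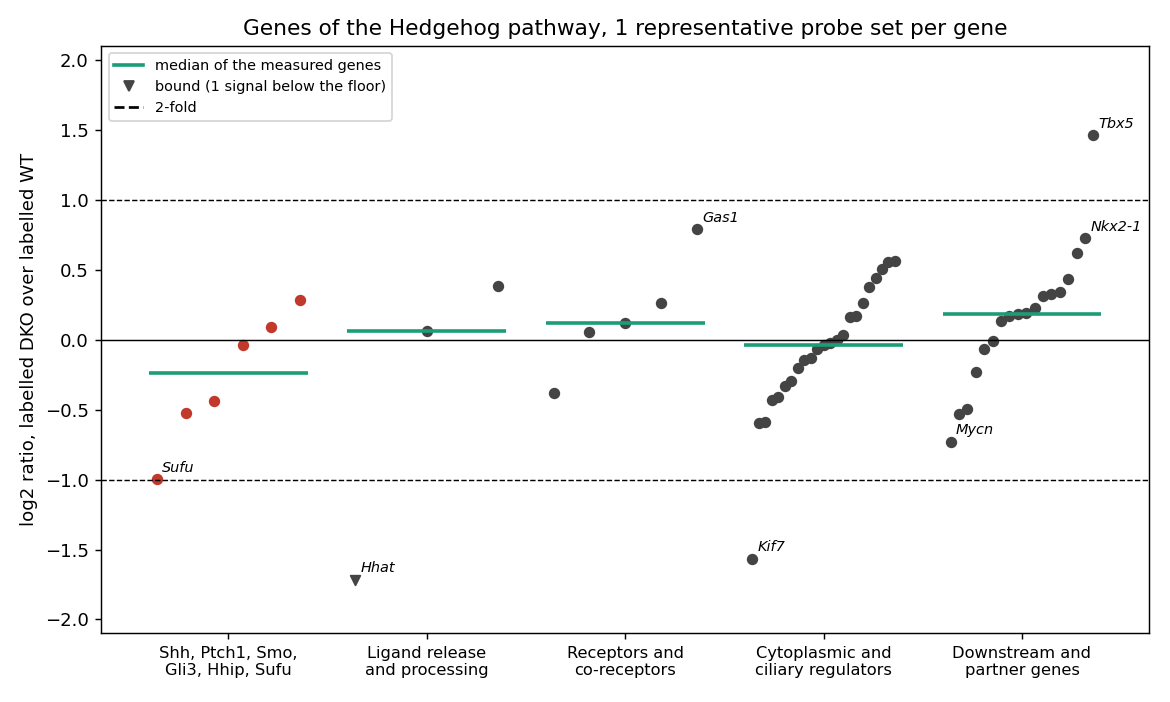
Log2 ratio (y axis) of the array labelled double knockout over the array labelled wild type for the 6 measured members (red) and the 49 other measured pathway genes (grey) by list, 1 representative probe set per gene. Green lines are list medians, between -0.24 and 0.19, the triangle is a bound for *Hhat*, and dashed lines mark 2-fold, passed by *Tbx5*, *Kif7* and *Hhat*.

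The arrays hold RNA of whole lung, so that fewer cells of a type and less RNA per cell cannot be told apart. Markers of the epithelium, where *Shh* is made, were higher for 6 of 9 genes, with a median log2 ratio of 0.49 and summed signals of 193381 in the arrays labelled double knockout and 142217 in the arrays labelled wild type. The sum was mostly *Sftpc*. Of the general epithelial markers, *Cdh1* (-0.35) and *Krt18* (-0.35) were lower and *Krt8* (-0.030) was slightly lower. *Epcam* had 0.94 by its brightest probe set and -0.058 by its other, and *Krt19* had 0.15. General epithelial markers thus held both directions. Markers of lung mesenchyme, where *Ptch1* and *Hhip* are mainly transcribed, were higher for 5 of 9, with a median of 0.22 and sums of 142771 and 132655. Smooth muscle markers were higher for 6 of 7 measured, with a median of 0.25 and sums of 53781 and 39369 in the same order. Thymus and lymphocyte markers were lower for all 9 measured of 10, with a median of -2.99 and sums of 7524 and 29380. Of these, 7 were at least 2-fold lower, and each of the 7 reached the filter through the wild type array alone. Their direction was thus set by the filter. *Cd8a* (-0.30) and *Foxn1* (-0.024), by their brightest probe sets, reached it in both arrays. These were the least lower readings of each gene. The 5 compared probe sets of *Cd8a* lay between -2.70 and -0.30, and the 2 of *Foxn1* between -0.46 and -0.024. Whether the other ones reached the filter in both arrays was not examined. The brightest of *Cd8a* has a suffix that marks probes that may match transcripts of more than 1 gene. Of 6 cartilage markers, *Col2a1* and *Col9a1* reached the filter, both lower, with sums of 1116 and 2549. *Col2a1* reached it through the wild type array alone, and its double knockout signal was under the floor. Markers of oesophagus and squamous epithelium were higher for 3 of 4 measured, with sums of 12933 and 5780, and heart markers for 5 of 7, with sums of 232037 and 210132. In the lists above, *Nkx2-1*, *Myh11* and *Krt5* reached the filter through the double knockout array alone, and *Krt13* through the wild type array alone. The sums add signals of different probe sets, without the floor and over both designs without 1 scale, so they are a description only. The MOE430B probe sets of *Cd8a* (4278 and 5257) and *Krt4* (8963 and 3053) weighed heavily in the sums of their lists. None of the marker signals was at 0, and the part of cell composition in the Hedgehog values was not tested.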

How the data were processed

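Lung RNA at E18.5 was measured on Affymetrix MOE430A and MOE430B, with 1 array per genotype and design. The deposited values are signal intensities on a linear scale, made with MAS5 per the submitters' processing notes. Its version, settings and detection calls are not stated in the sources at hand. The 2% trimmed mean of each array was about 1500, so each had been scaled on its own by the authors, and totals cannot differ between genotypes.

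Without the 64 control probe sets of each design, double knockout signals were divided by 1.004 (MOE430A) or 1.008 (MOE430B). Filter (median) and floor (25th percentile) were taken from the signals of each design, leaving 12203 and 12892 probe sets. Genes were named from GEO's platform annotation, where 20380 and 14661 probe sets had 1 gene, and updated through the RefSeq table of GRCm38.p6, which matched 20351 and 14486 and changed no symbol. The compared probe set with the highest mean signal, over both designs and without putting them on 1 scale, stood for a gene. With 1 array per group no test was made, and the number of arrays limits the precision. Named genes were all 8 members, both deleted genes and, of each other list, the 2 highest and 2 lowest bright genes and any past 2-fold. *Tbx3*, *Tbx4*, *Jag1* and *Mycn* were added after their values were seen. The members, lists and settings were chosen with earlier results of these data known. Protein sequences were not used here. The steps were tested on simulated data with python 3.11.15, numpy 2.4.6 and pandas 2.3.3. Alternatives covered the scaling, floor, filter, probe sets and designs.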

Additional observations from a re-analysis of the deposited data

How the results depend on the processing

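Ratios of single probe sets kept their sign under the alternatives that could be run for each, in all 15 compared Hedgehog probe sets, and *Shh* (1436869_at) stayed between -0.44 and -0.31 and the 3 bright *Hhip* probe sets between 0.25 and 0.56. With 1 array per group and no counts, the depth is unknown and the dim probe sets limit what can be compared. No paired analysis was possible because each group has 1 array and no replicate number.

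The brightest ratio of *Sufu* turned to 0.19 on MOE430A alone, with the designs on 1 scale and as the median over probe sets. The first 2 of these leave its MOE430B probe set out. *Ptch1*, -0.52, was 1.09 on MOE430B alone and 0.092 as that median, and *Gli3*, 0.089, was -0.45 as that median. The member median, -0.24, was 0.076 on MOE430A alone, 0.089 on MOE430B alone, 0.066 with the designs on 1 scale and 0.13 as the median over probe sets.

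The count of Hedgehog probe sets at least 1.5-fold higher (2) was 0 with the floor at the median and with a stricter filter (75th percentile), and 1 on MOE430A alone, on MOE430B alone and on 1 scale. The count at least 1.5-fold lower (2) was 0 on MOE430A alone and on 1 scale. The count at least 2-fold higher (1) was 0 with the floor at the median, the stricter filter, a loess curve removed, MOE430A alone and 1 scale. The count at least 2-fold lower (0) was 2 with quantile normalization and with loess, which carry the *Gli3* and *Sufu* probe sets across the line.

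Of the other pathway genes, 1 instead of 4 was at least 1.5-fold higher on MOE430B alone. At least 1.5-fold lower, instead of 5, were 3 with signals as deposited, on MOE430A alone and on 1 scale, 2 as the median over probe sets and 0 with the stricter filter. At least 2-fold lower, instead of 2, were 1 with the floor at the median and 0 with the stricter filter, on MOE430A alone and on 1 scale.

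Over all probe sets, 12.7% were at least 1.5-fold higher, but 8.03% with the floor at the median, 6.38% on MOE430A alone and 7.33% on 1 scale. At least 1.5-fold lower were 11.5%, but 7.30% with that floor, 7.34% with the stricter filter, 7.31% on MOE430A alone and 7.06% on 1 scale. At least 2-fold higher were 5.86%, but 1.85% with that floor, 2.79% with the stricter filter, 1.80% on MOE430A alone, 9.70% on MOE430B alone and 2.13% on 1 scale. At least 2-fold lower were 5.10%, but 1.73%, 2.31%, 2.05%, 8.0% and 1.97% in the same order. The cause of these shifts was not tested.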
